A study of Rattus norvegicus with 15 samples.

Results

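The genes of the collagen chains, the laminin chains and a set of other extracellular matrix proteins were followed in rat hepatocytes sorted by DNA content. The members were taken by gene name: every gene written as Col, a number, a and a number, every laminin alpha, beta or gamma chain (Lama, Lamb, Lamc), and the nidogens Nid1 and Nid2 with Sparc, Lum, Fn1, Fbn1, Fbln1, Fbln5 and Postn. The array carried 56 such genes of 36181 genes or unnamed features in all, 39 for collagen chains, 8 for laminin chains and 9 others. They lay on 76 of its 45598 probes, and 18 of the genes had several probes. A probe for Hspg2, which the same rule names, was not matched and that gene is not analysed here. Of the 56 genes, 19 were well above background, a flag set by the scanner software, on at least 5 of the 15 arrays and were tested.

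The cells came from female Wistar rats, were stained with the DNA dye Hoechst33342 and were separated in a cell sorter into the 3 groups 8c, 4c and 2c, named for their DNA content, with 1 array per group in each of 5 experiments (n = 5 per group). The animals carried no labelled treatment or mutation and were 12, 14, 6, 5 and 6 weeks old in experiments 1 to 5. A diploid cell before replication has 2c. Tetraploid cells and replicated diploid cells both have 4c, and octoploid cells and replicated tetraploid cells both have 8c. Neither the sort gates, the handling of doublets nor the number of animals per experiment is stated. Nothing in the labels says how the isolated cells were freed of other liver cells.

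Collagens are proteins of 3 chains wound into a helix. The fibril-forming types I, III and V give tissue its tensile strength, type IV forms the sheet of basement membranes together with laminins, nidogens and perlecan, and type VI forms beaded filaments around cells. In the liver, hepatocytes face the sinusoid across a thin matrix without a full basement membrane. Hepatic stellate cells, which store vitamin A between hepatocytes and endothelium, are the best known source of collagens I and III there, while hepatocytes secrete plasma fibronectin and express collagen XVIII.

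The sequences below identify what was measured for the member with the lowest adjusted p, for a fibrillar collagen that moved with it, and for a collagen that did not pass the test. Each is the 60-base probe as deposited, and each is free of stop codons in 1 of its 3 forward frames. The Sparc probe lies at chr10:40811473-40811532 on the minus strand, the Col3a1 probe at chr9:44317465-44317524 on the plus strand and the Col18a1 probe at chr20:11981417-11981476 on the plus strand, with positions as deposited (rn4). The part of the gene under each probe is not stated here, since no annotation of rn4 was used.
Sparc: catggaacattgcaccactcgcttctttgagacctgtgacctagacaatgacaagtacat
Col3a1: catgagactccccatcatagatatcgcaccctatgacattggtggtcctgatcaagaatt
Col18a1: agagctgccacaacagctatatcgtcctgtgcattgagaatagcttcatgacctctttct

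The Col6a6 probe, at chr8:110821775-110821834 on the minus strand of rn4, is shown because its 3′ end is a simple repeat, which only a few probes share. This probe was singled out after its values were seen. Its last 30 bases hold 6 tandem units of 4 bases in capitals, each of them TCTA or TCTG. As many units are held by 4 of all probes (0.00877%).
Col6a6: aatgtgTCTATCTATCTGTCTGTCTGTCTG

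Promoters are shown for 3 members that were lower in 8c than in 2c cells and for Col18a1, which did not pass. They are 300 bases of RefSeq sequence in the GRCr8 assembly, 250 before and 50 after the start, at chr4:33518307-33518606 on the plus strand (Col1a2), chr10:40038767-40039066 on the minus strand (Sparc), chr16:84885347-84885646 on the plus strand (Col4a1) and chr20:11473395-11473694 on the plus strand (Col18a1). Capitals mark matches on either strand to any of 3 motifs, and no match printed here overlaps another. The TATA box was searched as TATAAA and occurs in 14.2% of 33469 promoters of the same length. The CCAAT box, searched by those letters, occurs in 37.5% of them. The GC box was searched as GGGCGG and occurs in 33.1%.
Col1a2: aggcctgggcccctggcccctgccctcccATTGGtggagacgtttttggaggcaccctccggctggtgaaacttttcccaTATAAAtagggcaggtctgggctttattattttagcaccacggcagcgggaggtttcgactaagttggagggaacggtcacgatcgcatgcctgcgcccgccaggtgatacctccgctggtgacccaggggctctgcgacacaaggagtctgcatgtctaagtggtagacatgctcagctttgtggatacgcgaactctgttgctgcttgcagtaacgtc
Sparc: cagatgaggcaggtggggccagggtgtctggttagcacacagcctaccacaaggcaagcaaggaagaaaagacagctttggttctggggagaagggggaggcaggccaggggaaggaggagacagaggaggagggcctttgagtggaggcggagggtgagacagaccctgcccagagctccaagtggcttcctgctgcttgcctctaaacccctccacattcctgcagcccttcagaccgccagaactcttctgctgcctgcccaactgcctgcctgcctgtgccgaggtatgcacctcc
Col4a1: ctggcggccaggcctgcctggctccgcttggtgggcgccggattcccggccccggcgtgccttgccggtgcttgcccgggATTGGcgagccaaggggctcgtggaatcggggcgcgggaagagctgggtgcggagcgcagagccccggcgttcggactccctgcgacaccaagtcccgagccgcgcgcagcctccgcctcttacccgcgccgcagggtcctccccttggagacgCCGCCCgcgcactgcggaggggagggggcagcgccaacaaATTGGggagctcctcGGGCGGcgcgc
Col18a1: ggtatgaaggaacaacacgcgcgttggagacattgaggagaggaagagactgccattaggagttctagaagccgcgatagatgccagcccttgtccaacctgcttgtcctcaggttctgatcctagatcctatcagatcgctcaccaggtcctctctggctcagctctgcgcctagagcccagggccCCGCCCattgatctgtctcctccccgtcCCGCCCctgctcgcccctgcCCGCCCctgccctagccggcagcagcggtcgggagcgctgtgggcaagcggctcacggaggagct

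A promoter entry was found for 15 of the 19 tested members, 5 of them among the 7 lower in 8c than in 2c cells. The TATA box letters were found in 1 of the 15 (Col1a2), those of the CCAAT box in 6 and those of the GC box in 11. Among the 5, the counts were 1, 2 and 3. The Sparc window held none of the motifs. A match of letters is a description of the window and not a binding site.

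The members differed first in whether they were seen. Across the 15 arrays, 9 genes were well above background on every one: the fibril-forming chains Col1a2, Col2a1, Col5a2, Col5a3 and Col27a1, the collagen VI chain Col6a6, Col18a1, the laminin chain Lamc1 and fibronectin, Fn1. At the other end, 22 genes were above background on no array. These included Col1a1, the partner chain of Col1a2 in collagen I, on both of its probes, the basement membrane chains Col4a4 and Col4a6, the laminin chain Lama1, and lumican, Lum, a collagen-binding proteoglycan. In each group the genes seen on at least 1 array numbered 34 in 2c, 22 in 4c and 22 in 8c cells. Those seen on all 5 arrays of a group numbered 13, 10 and 11.

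Genes seen in 8c or 4c but in no 2c array numbered 0, while 10 genes were seen in 2c and in neither 4c nor 8c cells. They were Col13a1, Col14a1, Col4a3, Col6a3, Col8a1, Lamb2, Lamb3, the nidogen Nid2, fibrillin 1, Fbn1, which builds elastic microfibrils, and periostin, Postn, a matricellular protein. For 9 of the 10 this rested on 1 array each, of experiment 1 for 5 genes. In experiment 3, Fbn1 read -3.40 and Postn -3.33 on the 2c array alone (log2 level, where 0 is the 75th percentile of the array). The exception was Col6a3, a long chain of collagen VI, seen on 3 of 5 arrays in 2c cells. Its levels were -2.79, -6.50, -4.02, -5.25 and -5.39 on the 2c arrays of experiments 1 to 5, and they lay between -8.79 and -7.04 in 8c cells and between -8.54 and -7.30 in 4c cells. It was not tested because only 3 arrays showed it. Neither the counts of 0 and 10 genes nor those of genes seen per group were made over all features.

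The number of members seen per array also varied within the 2c group, with 26, 15, 22, 23 and 17 genes in experiments 1 to 5. The 4c arrays showed 17, 14, 15, 17 and 15 members and the 8c arrays 15, 13, 17, 16 and 15. Experiment 2 had the fewest in each group, and there the 2c array showed no more than several 4c arrays did. Of all probes, 47.4, 42.5, 42.6, 45.4 and 39.5% were above background on the 2c arrays of experiments 1 to 5. The shares were 47.3, 42.3, 42.0, 44.8 and 44.4% on the 4c arrays and 47.3, 41.1, 44.5, 46.3 and 42.7% on the 8c arrays.

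**Figure D1:**
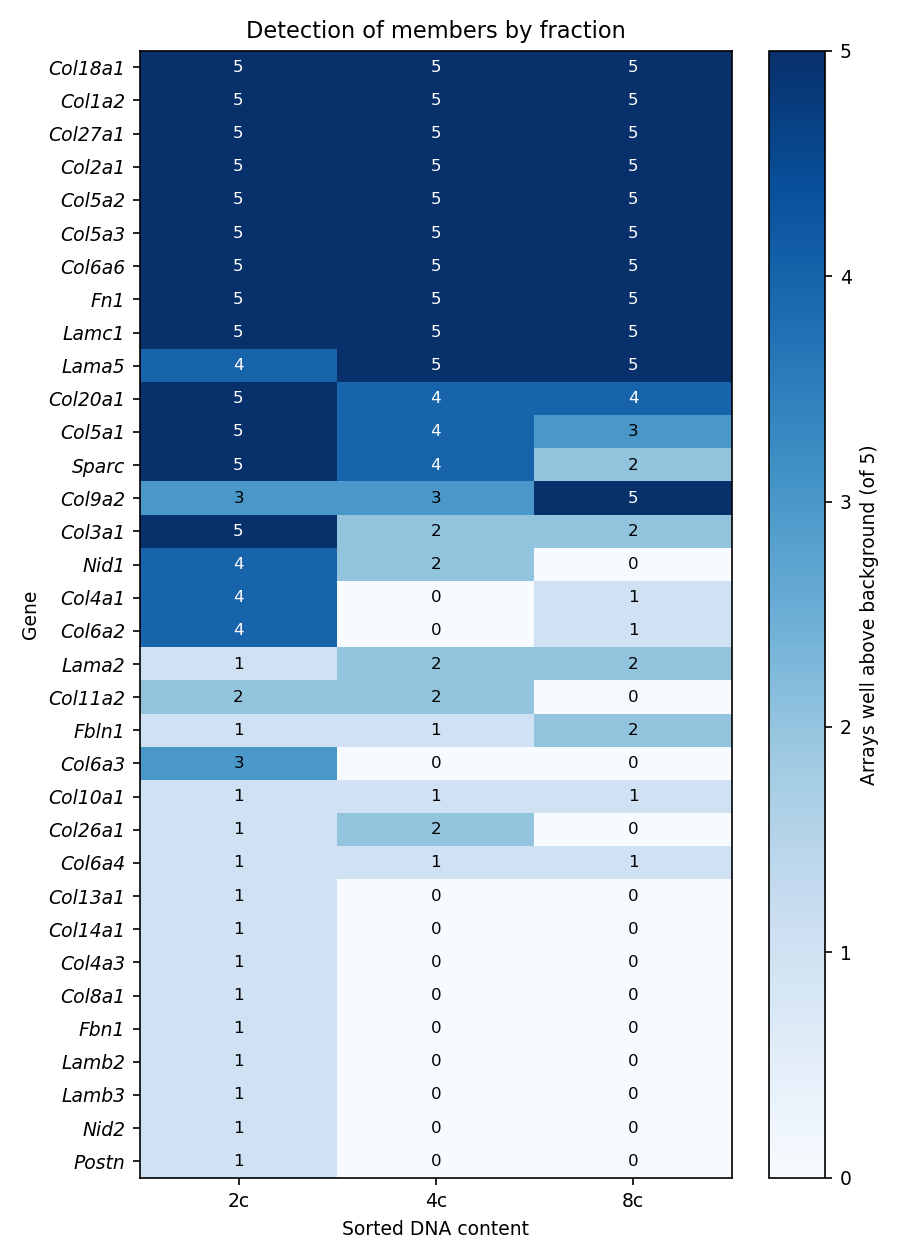
Number of arrays, of 5 per group, on which each of the 34 members seen on at least 1 array was well above background, in 2c, 4c and 8c cells (columns); rows are genes and darker cells mean more arrays. The 9 genes at the top are at 5 in each group, and the 9 at the bottom were seen on 1 array each, in 2c cells.

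The first question is which matrix genes differ between the highest and the lowest DNA content. Of the 19 tested members, 7 were lower in 8c than in 2c cells and 0 were higher: Sparc, Col3a1, Col6a2, Col4a1, Col1a2, Col5a1 and Col6a6. Over all 17045 tested features, 1.56% were lower and 0.81% higher at the same threshold (limma with the experiment as a block, Benjamini-Hochberg adjusted p under 0.05). Several members, such as Col3a1, Col4a1, Col6a2 and Nid1, were seen on fewer than 5 arrays of 4c and 8c cells together. They entered the test through their 2c arrays, so this count and the p-values of these genes are a description only. Among the 9 members above background on every array, where that filter plays no part, 2 were lower (Col1a2 and Col6a6), against 1.08% of the 13393 features seen on all arrays. Of these 2, the Col6a6 probe ends in the simple repeat shown above. In bulk RNA, fewer cells of a type and less RNA per cell cannot be told apart.

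The largest difference was that of Sparc, a secreted glycoprotein that binds collagen. Sparc read -0.50, -3.70, -0.62, -1.74 and -1.37 on the 2c arrays of experiments 1 to 5, -5.85, -6.54, -3.32, -3.87 and -5.48 on the 4c arrays, and -7.84, -7.72, -2.90, -4.65 and -7.27 on the 8c arrays. The 8c level lay below the 2c level in each experiment, but the groups overlapped, since 8c cells of experiment 3 lay above 2c cells of experiment 2. Sparc averaged -6.08 ± 2.20 in 8c and -1.59 ± 1.29 in 2c cells (SD, n = 5 each), with 2 of 5 arrays above background in 8c cells. It was at least 15-fold lower in 8c cells, with the dim arrays set to the lowest level seen above background on them (log2 difference -4.49, SE 0.61, limma adjusted p = 0.00521). Without experiment 1 the difference was -3.78 and the bound 9.14-fold, and with normexp background correction the difference was -1.85.

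Among the fibril-forming collagens, 3 of 7 tested chains were lower in 8c than in 2c cells, beside 1.56% of all features. Since Col3a1 entered the test through its 2c arrays, this count is a description only. Col3a1, the only chain of collagen III, read -1.10, -4.51, -1.40, -2.73 and -2.43 on the 2c arrays of experiments 1 to 5, -7.11, -7.73, -3.95, -4.63 and -6.51 on the 4c arrays, and -7.89, -7.63, -3.76, -5.03 and -7.44 on the 8c arrays. In both 4c and 8c cells it was above background only in experiments 3 and 4, and the 8c value of experiment 3 exceeded the 2c value of experiment 2. Col3a1 was at least 9.87-fold lower in 8c cells (log2 difference -3.91, SE 0.59, limma adjusted p = 0.00799), and at least 6.03-fold lower without experiment 1. With normexp background correction its difference was -1.4.

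Col1a2, the second chain of collagen I, was above background on every array. It read -1.47, -4.09, -1.93, -2.85 and -2.76 on the 2c arrays of experiments 1 to 5, -5.06, -4.79, -4.53, -4.39 and -5.86 on the 4c arrays, and -5.11, -4.76, -3.88, -4.25 and -5.52 on the 8c arrays. It was lower in 8c cells in each experiment, by 0.68 in experiment 2 and by more in the others, and only the 8c array of experiment 3 reached the 2c range. The mean was -4.71 ± 0.66 in 8c and -2.62 ± 1.0 in 2c cells (SD, n = 5 each), a 4.24-fold difference (log2 -2.09, SE 0.39, limma adjusted p = 0.0213). Its partner Col1a1 was above background on no array, with levels between -8.95 and -7.66, so collagen I was represented by 1 of its chains.

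Col5a1, a chain of the collagen V that nucleates fibrils, read -2.93, -5.44, -3.50, -4.43 and -4.16 on the 2c arrays of experiments 1 to 5, -6.02, -5.57, -5.19, -5.67 and -6.42 on the 4c arrays, and -6.25, -5.75, -5.51, -5.97 and -6.38 on the 8c arrays. Every 8c value lay below every 2c value, which held for no other tested member and for 0.886% of all features. The margin was small, since 2c cells of experiment 2 read -5.44 and 8c cells of experiment 3 read -5.51. Col5a1 was 3.68-fold lower in 8c cells, with 3 of 5 arrays above background there (log2 difference -1.88, SE 0.36, limma adjusted p = 0.0256).

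The remaining collagen V chains gave another picture. Col5a2 had a median of -4.35 (-4.43 to -3.17) in 8c and -3.80 (-4.19 to -3.25) in 2c cells, and its difference of -0.25 had a 95% confidence interval of -0.75 to 0.25. Col5a3 had a median of -4.84 (-5.37 to -4.60) in 8c and -4.68 (-4.88 to -4.28) in 2c cells, with a difference of -0.24 (-0.53 to 0.04). Neither passed, and the groups overlapped for both. The intervals of Col5a2 and Col5a3 lie above the estimate for Col5a1, but the differences between the chains were not tested.

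Col2a1, the collagen of cartilage, was seen on all arrays at a low level, with medians of -4.49 in 8c and -4.41 in 2c cells and a difference of 0.03 (95% confidence interval -0.32 to 0.37). Col27a1, a fibrillar collagen also known from cartilage, was lower in 8c cells in 5 of 5 experiments, but by only 0.29 on the log2 scale (-0.45 to -0.13), and it did not pass (limma adjusted p = 0.0779). Its medians were -3.22 in 8c and -2.94 in 2c cells. Both genes thus stayed within a narrow band.

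In the basement membrane set, 1 of 4 collagen IV chains on the array was tested. Col4a1, a chain of the collagen IV found in all basement membranes, read -3.18, -7.04, -3.92, -5.07 and -4.77 on the 2c arrays of experiments 1 to 5, -8.83, -7.89, -5.96, -7.01 and -7.99 on the 4c arrays, and -8.74, -7.60, -6.19, -7.86 and -7.85 on the 8c arrays. It was above background on 4 arrays of 2c cells, on 1 of 8c cells and on 0 of 4c cells. The 2c array of experiment 2 lay among the 4c and 8c values. Col4a1 was at least 3.49-fold lower in 8c cells (log2 difference -2.85, SE 0.60, limma adjusted p = 0.0372), and at least 5.48-fold lower without experiment 2. With normexp background correction its difference was only -0.64.

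Nid1, which links laminin to collagen IV, showed a similar layout without passing the test. It read -4.05, -7.29, -4.30, -5.24 and -5.16 on the 2c arrays of experiments 1 to 5, and in 8c cells this probe was above background on 0 of 5 arrays, with levels between -8.90 and -6.13. The second Nid1 probe, which was too dim to be tested, was above background on 1 array of 8c and on 0 of 2c cells, with means of -7.68 in 8c and -8.20 in 2c cells. The log2 difference was -1.98 with a 95% confidence interval of -3.31 to -0.65 (limma adjusted p = 0.143). It was negative in 5 of 5 experiments.

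The laminin chains did not pass. Lamc1, the gamma chain shared by most laminins, had a median of -2.85 (-2.93 to -2.02) in 8c and -2.65 (-3.43 to -2.30) in 2c cells, with a difference of 0.11 (95% confidence interval -0.24 to 0.46). Lama5, an alpha chain of basement membrane laminins, was above background on 14 of 15 arrays and differed by -0.21 (-0.91 to 0.49). For Lama2, best known from muscle, the interval was wide, with a difference of -0.67 (-1.54 to 0.21). Lama2 was above background on 5 arrays, and experiments 1 and 2 held all of them.

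Of collagen VI, both tested chains were lower in 8c than in 2c cells, beside 1.56% of all features. Since Col6a2 entered the test through its 2c arrays, this count is a description only. Col6a2 read -2.82, -6.83, -3.76, -4.93 and -4.46 on the 2c arrays of experiments 1 to 5, -8.79, -8.00, -6.93, -6.87 and -8.36 on the 4c arrays, and -8.84, -7.79, -6.21, -7.98 and -8.11 on the 8c arrays. It followed the layout of Col4a1, with 4 arrays above background in 2c cells, 0 in 4c and 1 in 8c cells. Col6a2 was at least 4.11-fold lower in 8c cells (log2 difference -3.23, SE 0.62, limma adjusted p = 0.0262). The bound was 2.71-fold without experiment 1 and 6.51-fold without experiment 2, and with normexp background correction the difference was only -0.75.

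Col6a6, another chain of the same family, moved less. It read -3.43, -3.41, -3.15, -4.65 and -3.48 on the 2c arrays of experiments 1 to 5, -3.97, -3.77, -3.82, -4.53 and -4.48 on the 4c arrays, and -4.17, -3.78, -4.48, -4.97 and -4.60 on the 8c arrays. The 2c array of experiment 4 stood below the other 2c arrays, which lay between -3.48 and -3.15, so the groups overlapped although each experiment was lower in 8c cells. Col6a6 was 1.71-fold lower in 8c cells (log2 difference -0.78, SE 0.16, limma adjusted p = 0.0341). The probe tested ends in the simple repeat shown above, and whether the repeat affects its signal was not tested. A second Col6a6 probe was above background on 1 array only. With quantile normalization the limma adjusted p of the tested probe was 0.0589.

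Fibronectin, Fn1, the matrix glycoprotein that hepatocytes also release into plasma, had a median of 3.69 (3.23 to 3.81) in 8c, against 3.53 (3.36 to 4.10) in 2c cells. Its difference was -0.00 with a 95% confidence interval of -0.22 to 0.21. Col18a1, the collagen whose C-terminal fragment is endostatin, had a median of 2.55 (2.32 to 2.62) in 8c, against 2.49 (2.21 to 2.54) in 2c cells. It was higher in 8c cells in 5 of 5 experiments, but by only 0.09 (-0.04 to 0.22). Both lay above the 75th percentile on every array. A change of 2-fold, which is 1 on the log2 scale, lies outside both intervals.

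Of the fibril-associated collagens, 2 of 8 were tested and neither passed. Col9a2, a chain of the collagen IX of cartilage, was seen on 5 of 5 arrays in 8c and 3 of 5 in 2c cells and differed by 0.37 (95% confidence interval -0.30 to 1.04). Col20a1, whose role in liver is little known, differed by -0.56 (-1.45 to 0.32). Their signs were opposite and both intervals hold 0.

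**Figure D2:**
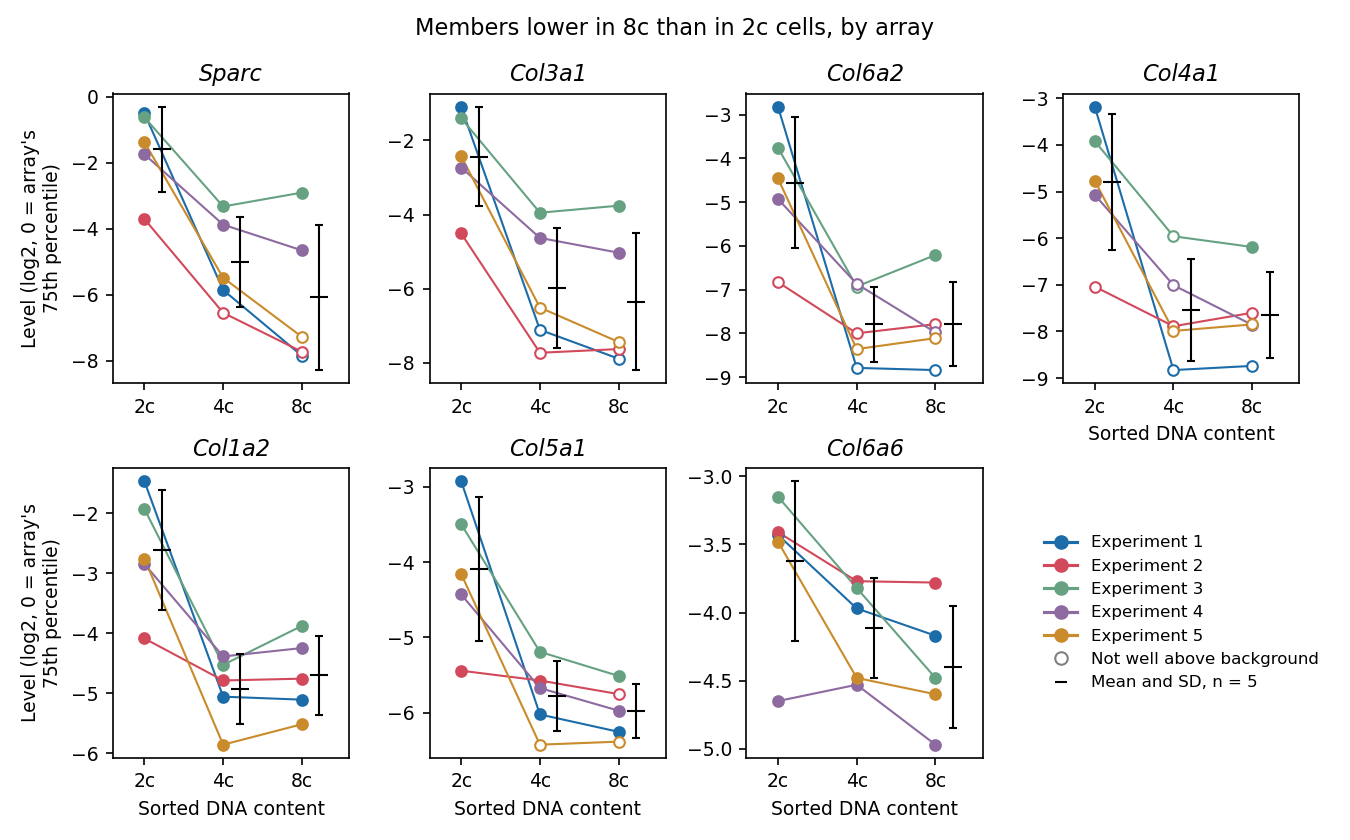
Levels of the 7 members lower in 8c than in 2c cells on each array (log2, 0 is the array's 75th percentile), by DNA content, with 1 coloured line per experiment, open points for arrays not well above background, and the mean with SD in black (n = 5). In each panel all 5 lines end lower at 8c than at 2c, and the smallest step is 0.31 (Col5a1, experiment 2).

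The members lower in 8c cells also varied together among the replicates. Among the 2c arrays, experiment 1 was the highest for 6 of the 7 genes and experiment 2 the lowest for 6 of 7. Among the 8c arrays, experiment 3 was the highest for 6 of 7. That array lay on slide 2, while the 2c and 4c arrays of experiment 3 lay on slide 1 with all arrays of experiments 1 and 2, and it is the only experiment split between the slides. The summed level of the 7 genes, on a linear scale where 1 is the array's 75th percentile, was 2.01, 0.313, 1.63, 0.738 and 0.947 on the 2c arrays of experiments 1 to 5. It was 0.139, 0.154, 0.33, 0.236 and 0.114 on the 4c arrays, and 0.111, 0.148, 0.37, 0.179 and 0.0953 on the 8c arrays. The spread of this sum between experiments was thus wider in 2c cells than in 4c or 8c cells, and the lowest 2c sum lay below the highest 4c and 8c sums. Bright genes weigh most in such a sum. By gene on the log2 scale, the SD of Sparc was 2.20 in 8c and 1.29 in 2c cells, and that of Col3a1 1.85 and 1.35. For Col1a2, Col4a1, Col5a1, Col6a2 and Col6a6 the SD was larger in 2c than in 8c cells.

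The 7 differences were negative in each alternative fit that held them, but the calls varied. Without the experiment as a block 0 of the 7 passed (adjusted p 0.0614 to 0.579), and with the slide as the block 1 did (Sparc). Calls over all 17045 features fell as well. Lower features numbered 266 with the experiment as a block, 33 with no block and 68 with the slide as the block. Without experiment 1 or without experiment 3 only Col3a1 and Sparc passed, without experiment 2 all but Col6a6, without experiment 4 Col3a1, Col6a6 and Sparc, and without experiment 5 the count was 0 (adjusted p 0.0511 to 0.173). Of all features, 110, 121, 158, 192 and 54 were lower with experiments 1 to 5 left out in turn. Normexp background correction, which compresses dim values, left 3 (Col1a2, Col3a1 and Sparc) with differences of -1.09 and below, and the other 4 between -0.75 and -0.40. It left 117 lower features in all. Within slide 1 the 7 differences lay between -5.45 and -0.59, and within slide 2 between -4.40 and -0.72. Within either slide 0 of the 7 and 0 of all 17045 features passed.

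**Figure D3:**
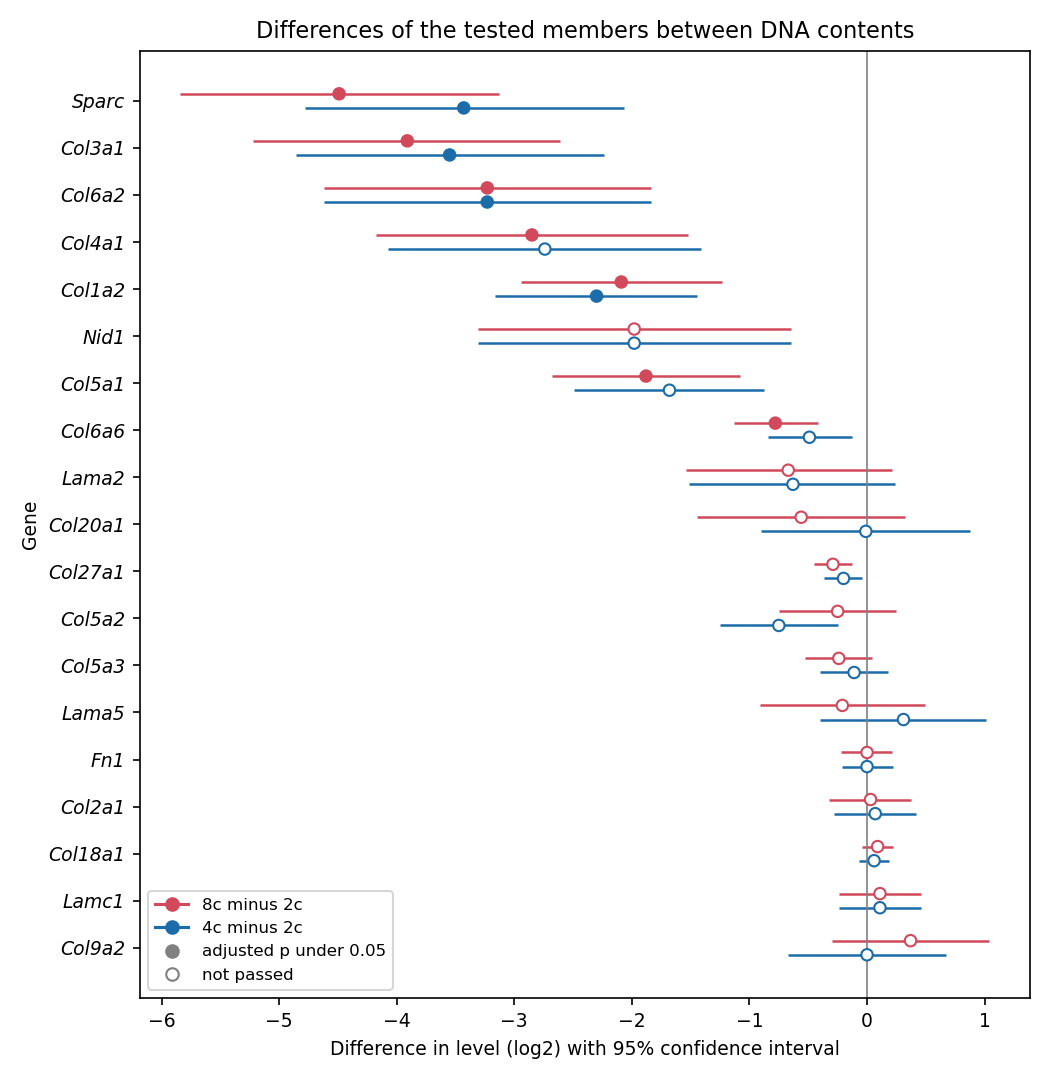
Differences in level (log2) of the 19 tested members, 8c minus 2c in red and 4c minus 2c in blue, with 95% confidence intervals from the fit; filled points have an adjusted p under 0.05 over all features. Sparc, Col3a1, Col6a2 and Col1a2 are filled for both comparisons, and Fn1, Col2a1, Col18a1 and Lamc1 lie at 0 within 0.11.

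The next question is which members differ between 4c and 2c cells. Of the 19 tested members, 4 were lower in 4c than in 2c cells and 0 were higher: Col3a1, Sparc, Col6a2 and Col1a2. Over all features 1.01% were lower and 0.264% higher. Col3a1 and Col6a2 entered the test through their 2c arrays, so this count and their p-values are again a description only. Of the 9 members seen on every array 1 was lower (Col1a2), against 0.687% of the features seen on all arrays. This comparison uses the same 2c arrays as that of 8c with 2c cells, so its values stand beside the earlier ones and do not repeat them independently.

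Col3a1 averaged -5.99 ± 1.62 in 4c and -2.43 ± 1.35 in 2c cells (SD, n = 5 each) and was at least 9.74-fold lower in 4c cells (log2 difference -3.55, SE 0.59, limma adjusted p = 0.0333), or at least 6.08-fold without experiment 1. Sparc averaged -5.01 ± 1.36 in 4c and -1.59 ± 1.29 in 2c cells and was at least 10.5-fold lower in 4c cells (-3.43, SE 0.61, adjusted p = 0.0371). For both genes the 4c array of experiment 3 lay above the 2c array of experiment 2. Col1a2 was 4.94-fold lower in 4c cells (-2.30, SE 0.39, limma adjusted p = 0.0338). Col6a2, seen on 0 of 5 arrays in 4c cells, was at least 4.40-fold lower there (-3.23, SE 0.62, limma adjusted p = 0.0429), or at least 6.86-fold without experiment 2. The groups did not overlap for Col1a2 and Col6a2, which held for 0.939% of all features. For Col6a2 the margin was narrow, with -6.87 as the highest 4c level and -6.83 as the lowest 2c level, and both of these readings were not above background, so the order of the 2 arrays carries no information.

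The other members lower in 8c cells were lower on average in 4c cells without passing. Col4a1 differed by -2.74 (limma adjusted p = 0.0636), Col5a1 by -1.68 (adjusted p = 0.0601) and Col6a6 by -0.49 (adjusted p = 0.181). Nid1 differed by -1.98 (adjusted p = 0.151). Col5a2 stood lower in 4c cells in 5 of 5 experiments, by 0.75 on average with a 95% confidence interval of -1.25 to -0.25 (adjusted p = 0.149), a larger difference than it had in 8c cells. Fn1 (0.00, -0.21 to 0.22), Col18a1 (0.06, -0.07 to 0.19) and Lamc1 (0.11, -0.24 to 0.46) again lay close to 0. Without the experiment as a block 0 of the 4 calls remained (adjusted p 0.102 to 0.296), and without experiment 3 or without experiment 5 the count was 0. Calls over all features fell as well, from 172 lower with the experiment as a block to 3 with no block. With experiments 1 to 5 left out in turn, 47, 20, 20, 125 and 3 features were lower. Of the 4, Col3a1 remained without experiment 1 or without experiment 4, and Col1a2 without experiment 2. Col5a1 also passed without experiment 2 and Col5a2 without experiment 4.

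Between 8c and 4c cells 0 of the 19 tested members passed in either direction, with 1 at an unadjusted p under 0.05 (Col5a2, 0.50 with a 95% confidence interval of 0.00 to 1.01). Over all features 0.0117% were lower and 0.639% higher in 8c cells. For 5 of the 7 members lower in 8c than in 2c cells, the 8c minus 4c difference lay between -0.36 and 0.22: Col3a1 -0.36 (-1.67 to 0.95), Col5a1 -0.20 (-1.0 to 0.61), Col4a1 -0.11 (-1.44 to 1.22), Col6a2 0.00 (-1.38 to 1.39) and Col1a2 0.22 (-0.64 to 1.08). For Col4a1 and Col6a2, seen on 1 array of 8c and 0 of 4c cells, and largely for Col3a1, seen on 2 arrays of each, this sets background readings against each other. Sparc differed by -1.06 (-2.42 to 0.29) and Col6a6 by -0.29 (-0.64 to 0.07). Each of these 7 intervals holds 0 as well as differences of 0.6 or more in size, and the test settles neither a further decrease nor its absence. At the level of arrays, 21 of the 35 pairs of these 7 genes and 5 experiments were lower in 8c than in 4c cells. In 17 pairs both arrays were above background, and 11 of these were lower in 8c cells.

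**Figure D4:**
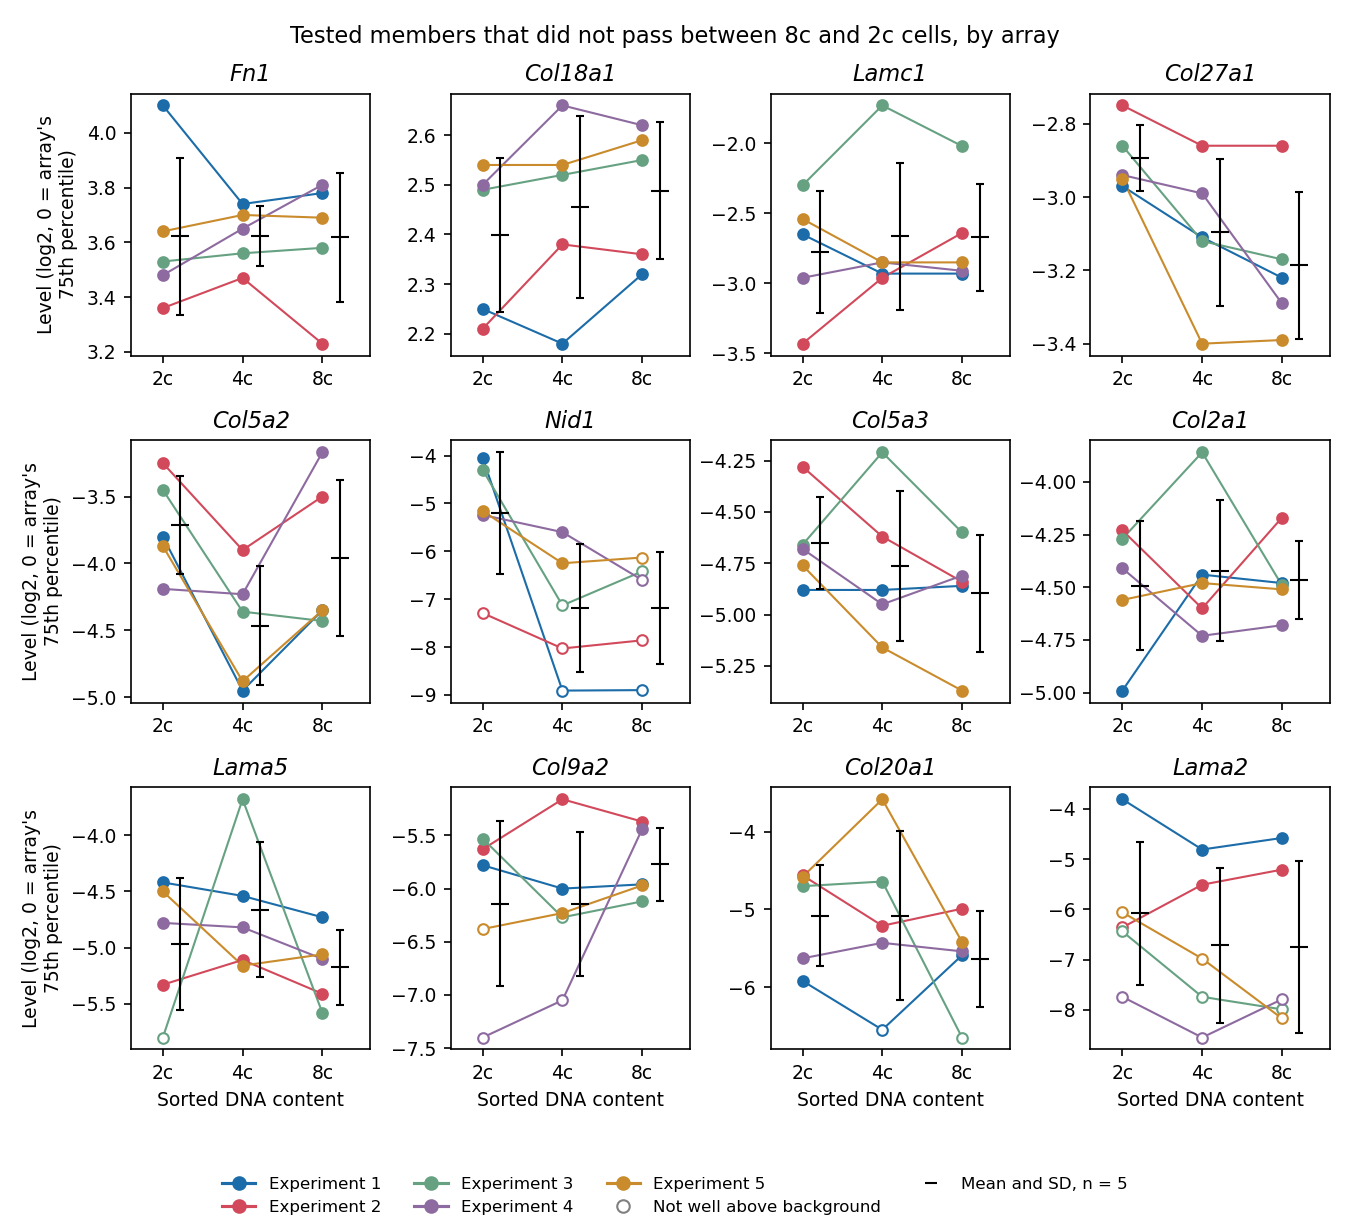
Levels of the 12 tested members that did not pass between 8c and 2c cells on each array (log2, 0 is the array's 75th percentile), drawn as for the members that passed; each panel has its own vertical range. Fn1 and Col18a1 stay above 2 on every array, while the Nid1 probe shown, the brighter of 2, is not well above background on any of the 8c arrays.

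The genes that make, bind, cut or surround these proteins were taken as 5 lists of 156 genes, of which 72 were tested. Over all features 1.56% were lower in 8c and 1.01% in 4c against 2c cells. Of 18 tested genes that modify, fold or cross-link collagen, 1 was lower in 8c than in 2c cells and 0 were higher, with a median difference of -0.07. That gene was P4ha2, a subunit of the prolyl hydroxylase that stabilises the collagen helix, which was 1.29-fold lower in 8c cells (log2 -0.37, SE 0.07, limma adjusted p = 0.0286) and 1.31-fold lower in 4c than in 2c cells (-0.39, adjusted p = 0.0411). Of 14 matrix receptors 1 was lower in 8c cells, the integrin chain Itga9 (2.89-fold, log2 -1.53, adjusted p = 0.0185), with a median of -0.01. In 4c against 2c cells 0 receptors passed. The median over all features was -0.023 for 8c against 2c and -0.031 for 4c against 2c cells, and that over the tested members -0.56 and -0.49.

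Of 10 genes that cut the matrix or inhibit the enzymes that do so, 4 were lower in 8c and 3 in 4c against 2c cells. Beside them stand 1.56% and 1.01% of all features, and 0 of the 10 were higher. Timp2, an inhibitor of matrix metalloproteinases, was 4.61-fold lower in 8c cells (log2 -2.21, SE 0.44, limma adjusted p = 0.0301) and 4.79-fold lower in 4c cells (-2.26, adjusted p = 0.0443). Timp1 was 2.47-fold lower in 8c (adjusted p = 0.00671) and 2.06-fold lower in 4c cells (adjusted p = 0.0379). The protease Adamts1 was at least 2.53-fold lower in 8c (adjusted p = 0.00118) and at least 2.75-fold lower in 4c cells (adjusted p = 0.0113), but it was seen on only 2 arrays of 8c and 1 of 4c cells and was tested because of its 2c arrays. Timp3 was 1.47-fold lower in 8c cells (adjusted p = 0.0428). The members of this list that moved were thus 1 protease and 3 inhibitors of proteases.

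Of 14 other matrix genes 3 were lower in both comparisons, beside 1.56% of all features in 8c and 1.01% in 4c against 2c cells. Bgn, the collagen-binding proteoglycan biglycan, averaged -4.11 in 8c and 0.76 in 2c cells, a 29.2-fold difference (log2 -4.87, SE 0.73, limma adjusted p = 0.00799), and it was 17.4-fold lower in 4c cells (adjusted p = 0.0371). Ecm1, extracellular matrix protein 1, was at least 18.4-fold lower in 8c (adjusted p = 0.0049) and at least 14.9-fold lower in 4c cells (adjusted p = 0.0291). Eln, elastin, was 4.11-fold lower in 8c (adjusted p = 0.00118) and 3.31-fold lower in 4c cells (adjusted p = 0.0113). Of 16 genes of TGF-beta and related signalling, which drives collagen synthesis in fibrosis, 1 was lower in 8c cells, the receptor Pdgfra (at least 2.06-fold, adjusted p = 0.0458), and 0 passed in 4c against 2c cells. Pdgfra was above background on 1 array of 8c, 1 of 4c and 3 of 2c cells, so it was tested because of its 2c arrays, and it was lower in 8c cells in 4 of 5 experiments. Between 8c and 4c cells 0 genes passed in each of the 5 lists.

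Some markers of other liver cells moved with these differences and some did not. Of 9 tested stellate cell markers 5 were lower in 8c than in 2c cells, of 12 endothelial markers 4 and of 11 Kupffer cell markers 9, and 0 were higher in any of them, beside 1.56% of all features lower. Of those called, 3 stellate (Lrat, Reln and Pdgfra), 2 endothelial (Lyve1 and Tek) and 4 Kupffer cell markers (Cd163, C1qa, C1qc and Cd5l) were seen on fewer than 5 arrays of 4c and 8c cells together and so were tested only because of their 2c arrays. Lrat, the enzyme that esterifies vitamin A in stellate cells, was seen on 0 arrays of 8c, 0 of 4c and 5 of 2c cells and was at least 6.06-fold lower in 8c cells (log2 -3.99, SE 0.56, limma adjusted p = 0.00582). The stellate markers Acta2 (-0.33), Rgs5 (-0.37), Thy1 (-0.08) and Pdgfrb did not pass. Pdgfrb stood higher by 0.23 in 8c and by 0.23 in 4c than in 2c cells. Of the endothelial markers that did not pass, Vwf (-0.02), Flt4 (0.04) and Cdh5 (-0.22) lay near 0, while Stab2 (-2.32) and Pecam1 (-2.24) stood lower in 8c cells. Of the 19 stellate markers on the array, Dcn and Tagln were above background on no array. No member of the matrix set is in a marker list, while Bgn and Pdgfra are both stellate markers and genes of the matrix lists.

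The summed level of the stellate markers was 10.5, 1.37, 4.19, 1.85 and 2.61 on the 2c arrays of experiments 1 to 5, 0.588, 0.621, 1.43, 0.709 and 0.515 on the 4c arrays, and 0.455, 0.551, 1.01, 0.504 and 0.513 on the 8c arrays. The 2c arrays had the same order by this sum as by the sum of the 7 members, with experiment 1 highest, then 3, 5, 4 and 2. The 4c arrays also shared an order, with experiment 3 highest, then 4, 2, 1 and 5. On the 8c arrays the orders differed, with experiments 3, 4, 2, 1 and 5 for the members and 3, 2, 5, 4 and 1 for the stellate markers. By the Kupffer cell sum the 2c order was close to that of the members, with experiments 1, 3, 5, 2 and 4. Kupffer cell markers summed to 1.12 to 1.72 in 8c, against 1.94 to 17.1 in 2c cells, with 1.27 to 1.65 in 4c cells. Endothelial markers summed to 3.15 to 5.61 in 8c, against 3.64 to 5.59 in 2c cells, so that this sum overlapped although 4 of its genes were lower. On the linear scale this sum rests largely on Vwf, with log2 means of 1.86 in 8c and 1.88 in 2c cells. The overlap therefore says little about the dimmer markers. Over the 12 tested endothelial markers the median 8c minus 2c difference was -2.28. The part of stellate, Kupffer and endothelial cells in the differences of the members was not tested.

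**Figure D5:**
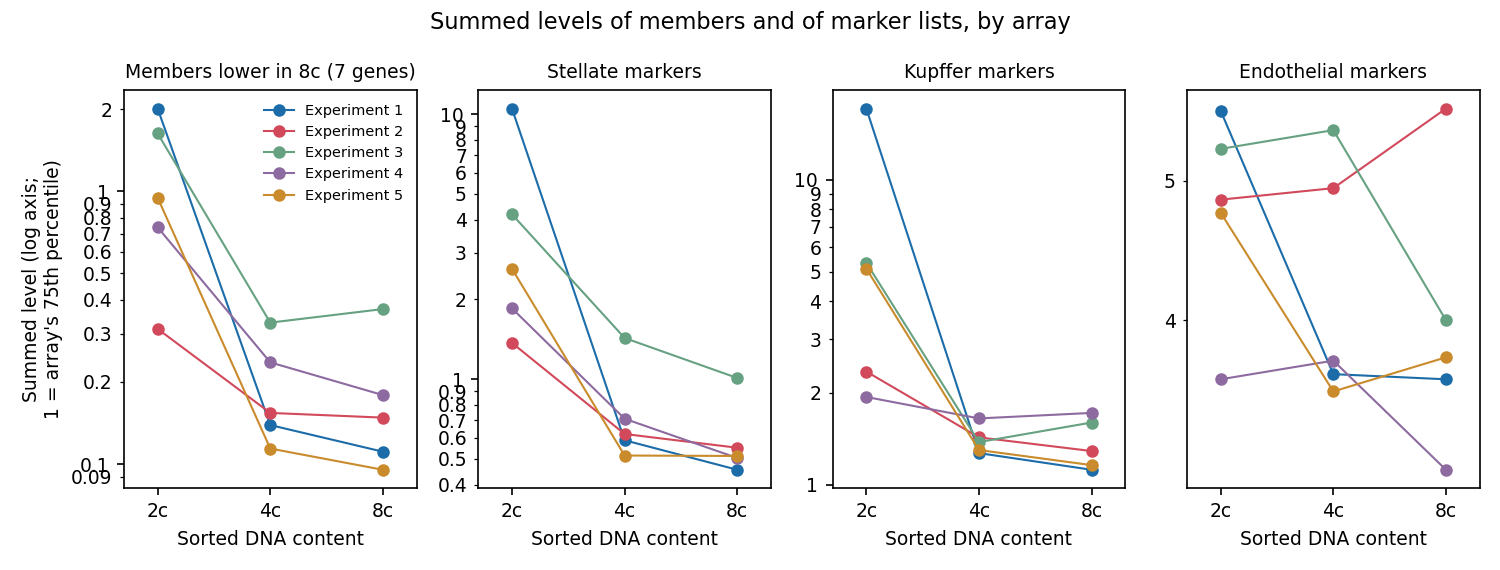
Summed levels on each array (log axis, 1 is the array's 75th percentile) of the 7 members lower in 8c than in 2c cells and of the marker lists of stellate, Kupffer and endothelial cells, by DNA content, with 1 line per experiment. The member and stellate sums have their highest 2c value in experiment 1 (2.01 and 10.5) and their lowest in experiment 2 (0.313 and 1.37), while the endothelial sums overlap between groups. The endothelial sums rest largely on Vwf.

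The labelled cell type was checked against its own markers, and all 15 hepatocyte genes were above background on every array and summed to 1060 to 1470 in 8c, against 1110 to 1670 in 2c cells. Of these, 1 was lower in 8c cells (Cyp2e1, a 1.42-fold difference). Bile duct markers Krt7, Krt19, Spp1 and Cldn4 were above background on no array, while Epcam stood below its 2c level in 8c cells, by 1.73-fold (limma adjusted p = 0.00799). Of 2 tested mesothelial markers 0 passed. Pancreatic acinar transcripts were abundant on 6 arrays: 2c and 8c of experiment 1, all of experiment 2, and 8c of experiment 3. Of 22 tested acinar genes 0 passed in each comparison. Without those 6 arrays the 7 members differed by -4.34 to -0.75 between 8c and 2c cells, and neither they nor any of the 17045 features passed (members' adjusted p 0.178 to 0.659).

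Whether the 8c minus 2c difference of a member depended on the age of the animals was tested as an interaction. It passed for 0 of the 19 tested members and for 0 features in all, with a lowest adjusted p of 0.959 among the members. At an unadjusted p under 0.05 it held for 0 members and 4.8% of all features. Each age stands for 1 to 2 experiments, so this test has little power.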

How the data were processed

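RNA of sorted hepatocytes was hybridised to 15 one-colour Cy3 arrays. The deposited scanner files give spot intensity on a linear scale, and the signal used here was background-subtracted and detrended within each array by the authors' software, with no normalization between arrays. That software is Agilent Feature Extraction 11.5.1.1 per the file headers and 10.7.3.1 per the submitters' processing notes. The number of arrays limits the precision.

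Control spots and outlier spots (264 to 539 per array) were left out and spots of a probe averaged. Intensity was taken to log2, minus a scaling value per array, the 75th percentile over those 16211 probes that were seen (well above background) throughout. Features seen on at least 5 of 15 arrays were tested, with the brightest probe per gene. One limma fit (version 3.58.1 in R 4.3.3, lmFit and eBayes) held all 15 arrays with the experiment as a block. Two-sided p-values were adjusted over 17045 features after Benjamini and Hochberg, at a threshold of 0.05. Fold bounds set dim arrays of the lower group to the lowest level seen above background on that array. They are point estimates and not confidence limits.

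The pairing follows the design text and the sample titles, with 5 experiments that each gave all 3 fractions. After removal of group means, arrays of the same experiment correlated with a median of 0.59 over 15 pairs (0.04 to 0.79), and others with -0.13. The number of animals behind an experiment is not stated, so p-values refer to experiments and not to animals. With the experiment as a block, they measure the scatter of the fraction differences over these experiments and not that of the levels. The 3 fractions share 1 estimate of that scatter.

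The named members are all 19 that were tested. Of each matrix list the genes that pass are named, up to 6 by adjusted p. Members and lists were chosen with earlier results of these data known. On simulated 8c against 2c data of 17045 features with 200 changed, 66% were recovered at a log2 difference of 1, 96% at 2 and 100% at 4, and 7 of 156 calls fell on features left unchanged. The changed features were picked at random, with the same shift in every experiment and no background floor. These rates therefore need not hold for the members, of which several are dim and vary between experiments. Alternatives covered the block, the scaling, normexp background correction (offset 50), dim probes left in or out, the authors' deposited value table (intensity on the same linear scale, correlating with the processed signals at 1.0), experiments left out, slides, arrays with acinar transcripts and floors for dim values. The last 3 were added after the data were seen.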

Additional observations from a re-analysis of the deposited data

Results flagged for a closer look

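Among 57 sets of 5 arrays (19 tested members in 3 groups), 2 held an array far from the other 4 by Dixon's ratio, where chance gives about 1 in 20. Col6a6 read -4.65 on the 2c array of experiment 4, while the other 2c arrays lay between -3.48 and -3.15. Lamc1 read -1.73 on the 4c array of experiment 3, while the other 4c arrays lay between -2.96 and -2.85. In that experiment Lamc1 was also the highest in 2c (-2.30) and 8c cells (-2.02).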

How the results depend on the processing

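The direction of the 7 members lower in 8c than in 2c cells was kept under each alternative that could fit them, while the number of calls was not. Lower members numbered 7 in 8c against 2c and 4 in 4c against 2c cells in the fit with the experiment as a replicate block. The counts were 0 and 0 with no replicate block, 1 and 0 with the slide as the block, 3 and 3 with normexp correction, 2 and 1 on probes seen on all arrays, 2 and 0 with no filter on dim probes, and 5 and 3 with dim values at the floor. Over all 17045 features, 266 and 172 were lower with the experiment as a block. Under these settings the same counts were 33 and 3, 68 and 4, 117 and 47, 144 and 92 (of 13393), 155 and 0 (of 36158), and 245 and 166. Lower members numbered 0 and 0 within slide 1, within slide 2 and without the arrays with acinar transcripts, where no feature passed either. Leaving out 1 experiment gave 0 to 6 in 8c and 0 to 2 in 4c against 2c cells, beside 54 to 192 and 3 to 125 lower features in all. Of the matrix list genes, beside the same counts over all features, 10 in 8c and 7 in 4c were lower than in 2c cells. These counts were 2 and 0 with no replicate block, 6 and 0 with the slide as the block, 4 and 3 with normexp, 6 and 5 on probes seen on all arrays, and 6 and 0 with no filter. Within slides and without acinar arrays they were 0 and 0, and with 1 experiment left out 4 to 7 and 1 to 5. The median over tested members in 8c against 2c cells was -0.56, with -0.73 to -0.31 with 1 experiment left out, -0.20 within slide 1, -0.24 with normexp and on probes seen on all arrays, -0.26 with the slide block and -0.29 at the floor. In 4c against 2c cells it was -0.49, with -0.22 for dim values at the floor and -0.11 on probes seen on all arrays. In 8c against 4c cells it was -0.04, with 0.01 within slide 1, -0.13 within slide 2, -0.14 without acinar arrays and -0.11 to -0.05 with 1 experiment left out. Higher members numbered 0 under every setting, and no difference that passed changed sign. The cause of these changes was not tested beyond the fewer arrays or features that a setting holds. Signal over background limits the values of Col3a1, Col4a1, Col6a2 and Sparc, whose 4c and 8c levels lie partly below background, and those of Nid1 and Lama2. The median of all features shifted to -0.107 with normexp and -0.147 with no filter. Of all features called in 8c against 2c cells, 34.2% were higher, against 46.7% with quantile normalization, 46.4% with the median and 54% with the percentile over all probes. The quantile, median and all-probe scalings gave 6, 7 and 7 lower members, beside 202, 216 and 192 lower features in all.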
